A study of Mus musculus with 9 samples.

Results

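Fatty acid desaturases and elongases are described here through 10 genes: the stearoyl-CoA desaturases Scd1, Scd2, Scd3 and Scd4, the fatty acid desaturases Fads1, Fads2 and Fads3, and the elongases Elovl1, Elovl5 and Elovl6. They were taken as a named list and not by their measured values, and are 10 of the 35071 genes to which the transcripts of the series could be assigned. All 10 passed edgeR's filter on low counts, so none is missing from the tests. RNA was sequenced from whole subcutaneous fat of C57BL/6 mice aged 24 weeks, in 3 libraries for each of 3 genotypes. WT animals are wild-type littermates, and Hete KO and Homo KO animals are labelled as heterozygous and homozygous knockouts of AGO1 in endothelial cells. The series was made to look for molecular changes behind a metabolic phenotype of the knockout animals. The labels name no Cre driver, no sex and no litter. They number the libraries within a genotype and do not say that each came from a separate animal, so p-values measure only the spread between these libraries. Where values of the 3 libraries of a genotype are listed, they stand in the order of replicates 1, 2 and 3. In whole tissue, fewer cells of a type and less RNA per cell cannot be told apart.

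Desaturases place a double bond in a fatty acid bound to coenzyme A, using electrons passed along by cytochrome b5 and its reductases. Stearoyl-CoA desaturases turn saturated into monounsaturated fatty acids, the main form in which fat cells store newly made lipid, and Scd1 is the leading form in adipose tissue and liver. FADS1 and FADS2 act on dietary essential fatty acids on the way to arachidonic and docosahexaenoic acid, while FADS3 acts on sphingoid bases of sphingolipids. ELOVL elongases catalyse the first and limiting step of a cycle that lengthens the chain by a pair of carbons. ELOVL6 lengthens palmitate to stearate, ELOVL5 acts on polyunsaturated chains, and ELOVL1 makes very long saturated and monounsaturated chains of sphingolipids.

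The 10 genes lie in few places of the genome (mm10). The Scd genes are neighbours on chromosome 19, with Scd3 at chr19:44203269-44244016, Scd2 at chr19:44293674-44306864 and Scd4 at chr19:44333092-44346743 on the plus strand, and Scd1 at chr19:44394455-44407879 on the minus strand. The Fads genes form a second cluster on the same chromosome, with Fads3 at chr19:10041569-10060110 and Fads1 at chr19:10182888-10196877 on the plus strand and Fads2 between them at chr19:10062765-10101746 on the minus strand. The elongases are dispersed on plus strands, with Elovl1 at chr4:118428093-118432953, Elovl5 at chr9:77917364-77984519 and Elovl6 at chr3:129532355-129638495. Coding sequences of the Scd genes are close to one another, and this bears on how far their transcripts can be told apart. Scd1 shared 91.5% of aligned coding bases with Scd3, 90.4% with Scd2 and 84.7% with Scd4. The identity was 62.6 to 71.1% among the Fads genes and 55.5 to 57.8% among the elongases. Of all stretches of 31 bases in the main transcript, 8.45% in Scd1, 6.86% in Scd2, 15.64% in Scd3 and 12.27% in Scd4 also occurred in another gene. The share was 0 in Fads1, Elovl1 and Elovl5, 0.77% in Fads2, 0.66% in Fads3 and 7.72% in Elovl6, where most of it belonged to the predicted gene Gm11295.

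A pair of 60-base stretches gives examples of where Scd reads can and cannot be placed. They were chosen among coding stretches with no alignment gap and no exon border in any of the 4 genes. They are read from the GENCODE M21 transcripts (mm10), and capitals mark bases that differ from Scd1. The first stretch lies in exon 4, at coding bases 442 to 501 of Scd1, and was the most alike, with 59 of 60 positions shared by all 4 genes. It is at chr19:44401827-44401886 on the minus strand in Scd1, and on the plus strand at chr19:44299621-44299680 in Scd2, chr19:44235783-44235842 in Scd3 and chr19:44338922-44338981 in Scd4.
Scd1: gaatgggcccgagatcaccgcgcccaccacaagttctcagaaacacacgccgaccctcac
Scd2: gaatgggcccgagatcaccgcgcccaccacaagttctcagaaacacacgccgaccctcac
Scd3: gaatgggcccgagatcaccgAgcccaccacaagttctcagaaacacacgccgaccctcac
Scd4: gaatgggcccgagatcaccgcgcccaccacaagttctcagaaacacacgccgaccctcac
The second stretch lies in exon 3, at coding bases 299 to 358 of Scd1, and was the least alike, with 30 of 60 positions shared. It is at chr19:44403236-44403295 in Scd1, chr19:44298040-44298099 in Scd2, chr19:44234223-44234282 in Scd3 and chr19:44337501-44337560 in Scd4.
Scd1: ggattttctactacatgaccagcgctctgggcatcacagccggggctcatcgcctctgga
Scd2: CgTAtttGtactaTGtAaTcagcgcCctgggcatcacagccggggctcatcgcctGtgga
Scd3: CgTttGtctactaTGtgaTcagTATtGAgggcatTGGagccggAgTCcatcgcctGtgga
Scd4: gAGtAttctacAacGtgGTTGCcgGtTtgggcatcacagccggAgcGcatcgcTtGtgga
In the exon 3 stretch, Scd2 differs from Scd1 at 10 positions, Scd3 at 18 and Scd4 at 16. A read that falls wholly in the exon 4 stretch cannot be assigned between Scd1, Scd2 and Scd4. The deposited counts are estimates that share out such reads, so the low values of Scd3 and Scd4, which stand beside a far larger Scd1 count, are uncertain.

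Some features of the libraries touch the results. Total estimated counts lay between 20843427 and 28252001. The label of fat tissue was checked against its markers, and 10 of 10 adipocyte markers were present in every group, holding 1.36 to 1.70% of the WT counts, 1.19 to 1.45% of the Hete KO counts and 1.46 to 1.55% of the Homo KO counts. The 12 skeletal muscle markers were high in 3 libraries, namely WT 1 (1.11% of counts), WT 2 (1.05%) and Hete KO 2 (2.82%), and held at most 0.138% in the other 6. The 9 liver markers were high in WT 2 (0.102%) and WT 3 (0.0879%) and ranged from 0.00120 to 0.00635% elsewhere. Macrophage markers, 9 in number, held 0.0701 to 0.103% of counts in WT, 0.0375 to 0.0561% in Hete KO and 0.0496 to 0.0749% in Homo KO. The 8 progenitor and fibroblast markers held 0.173 to 0.249%, 0.0897 to 0.142% and 0.146 to 0.182%. No muscle, liver, macrophage or progenitor marker was at 0 in any group. Ago1, the targeted gene, had 69.9, 63.8 and 63.4 CPM (the count scaled to library size after TMM normalization) in the WT libraries. Ago1 had 51.2, 59.7 and 60.1 CPM across Hete KO libraries and 62.2, 58.6 and 25.8 CPM across Homo KO libraries. On this scale all 6 knockout libraries lay below the WT libraries, as did 12.1% of all tested genes in Hete KO and 11.2% in Homo KO. Neither difference passed edgeR's quasi-likelihood test (adjusted p = 0.699 for Hete KO and 0.441 for Homo KO). By TPM, which is scaled to transcript length, the Ago1 groups overlapped. WT 3 had 15.8 TPM, Hete KO libraries 17.6 to 18.5 and Homo KO libraries 7.64 to 20.4.

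By counts Scd1 ranked 1 among all genes in each of the 9 libraries. By TPM, which is scaled to transcript length, it ranked between 2 and 6. On the TPM scale the mean level over the 9 libraries ran in the order Scd1 (17686), Scd2 (172), Fads3 (167), Elovl5 (49.8), Elovl6 (28.5), Elovl1 (18.7), Fads1 (17.5), Fads2 (9.40), Scd3 (2.54) and Scd4 (0.725). Scd1 thus stood alone, with a TPM level 45.7 to 223.8 times that of Scd2 depending on the library, and Scd3 and Scd4 were far below the other members. Several neighbours in this order were not separated by their spread: Scd2 lay above Fads3 in 5 of 9 libraries, Elovl6 above Elovl1 in 7, Elovl1 above Fads1 in 6 and Fads1 above Fads2 in 7. Each of the other neighbouring pairs kept its order in all 9. From the lowest to the highest library the TPM level spanned 4.56-fold for Fads2, 2.83-fold for Fads1, 2.74-fold for Scd2, 2.63-fold for Scd1 and 2.58-fold for Elovl6, and only 1.503-fold for Fads3, 1.41-fold for Elovl1 and 1.38-fold for Elovl5. The Fads2 level per length rests on a deposited transcript of 1508 bases, while the GENCODE M21 model has 3150, so its place in the order is less firm than that of the others.

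**Figure D1:**
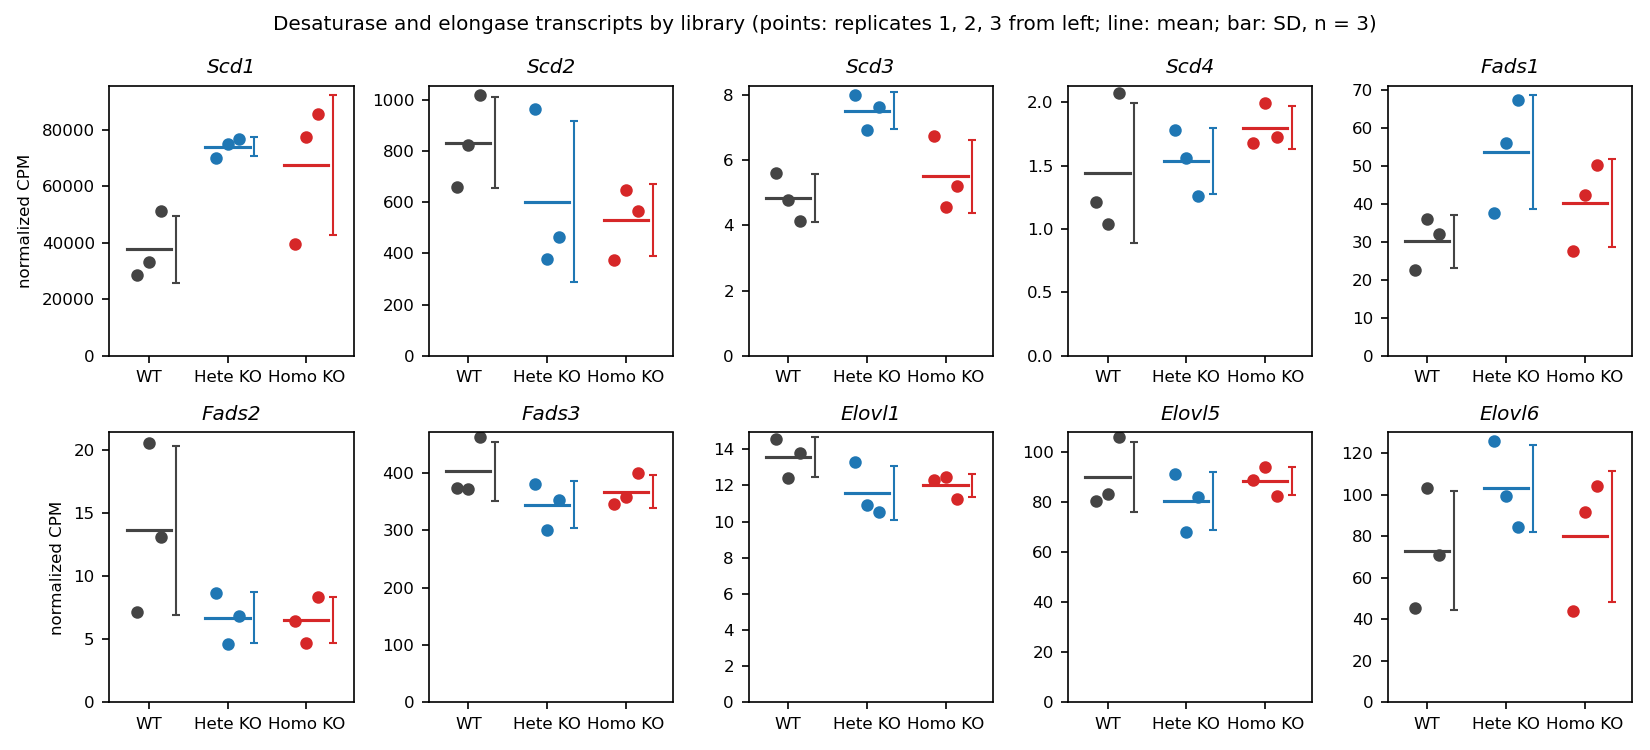
Normalized CPM (vertical axes, each from 0) of the 10 genes in each library, grouped by genotype on the horizontal axes. Points are libraries 1, 2 and 3 from left to right, lines are means and bars are SDs (n = 3). The Hete KO points of Scd1, between 70108 and 76591, all lie above the WT points, while Homo KO 1, at 39484, lies within the WT range.

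Scd1, the leading desaturase of stored fat, had 28574, 33150 and 51184 CPM in the WT libraries. Scd1 reached 70108, 74995 and 76591 CPM across Hete KO libraries and 39484, 77474 and 85578 CPM across Homo KO libraries. Every Hete KO library lay above every WT library, whereas Homo KO 1 lay between WT 2 and WT 3. The Hete KO mean of 73898 ± 3378 CPM (SD, n = 3) compared with a WT mean of 37636 ± 11954. This is a log2 fold change of 0.97 (SE 0.301, 95% interval 0.30 to 1.64). The unadjusted p was 0.00905 and the adjusted p 0.112 by edgeR, so the difference did not pass the threshold of 0.05. The Homo KO mean of 67512 ± 24609 CPM gave 0.84 against WT (SE 0.300, 95% interval 0.17 to 1.51, edgeR adjusted p = 0.238), which did not pass either. DESeq2 called both, with adjusted p = 0.0049 for Hete KO and 0.0358 for Homo KO. Over all alternatives the adjusted p lay between 0.0049 and 0.653 for Hete KO and between 0.0358 and 0.739 for Homo KO. WT 1 and WT 2, the libraries with the least Scd1, each held over 1% muscle transcripts. Hete KO 2 held the most muscle transcripts and had 74995 CPM of Scd1. Without WT 1, WT 2 and Hete KO 2, WT is a single library, assumed to vary like the others, and the log2 fold change was 0.53 for Hete KO and 0.40 for Homo KO. Without WT 2 and WT 3, the libraries with liver transcripts, it was 1.37 and 1.24. Macrophage and progenitor markers, given above, were lower in every Hete KO library than in every WT library. Of the 10 adipocyte markers, 8 had a log2 fold change above 0 in each knockout group against WT, with medians of 0.36 in Hete KO and 0.35 in Homo KO, and 0 passed by edgeR. Every Hete KO library lay above every WT library for Cfd, Lipe, Pnpla2 and Slc2a4, and below for Lep, the gene of leptin. These are 4 of 10 markers above and 1 below, against 12.6% and 12.1% of all tested genes. In Homo KO, 2 of 10 lay above WT in every library (Cfd and Pnpla2) and 1 below (Lep), against 10.9% and 11.2%. The part of all these markers in the Scd1 values was not tested.

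Because of its level, Scd1 set the share of the whole family in the transcriptome. The WT libraries gave 3.06, 3.76 and 5.30% of their counts to the 10 genes. This share was 7.10, 6.89 and 7.69% in Hete KO libraries and 4.31, 7.72 and 8.31% in Homo KO libraries. Scd1 made up 95.8 to 98.8% of this. The other 9 genes together took 0.124 to 0.172% of the WT counts, 0.0841 to 0.161% of the Hete KO counts and 0.0968 to 0.123% of the Homo KO counts. Without Scd1 the Hete KO range thus overlapped that of WT, and the Homo KO range ended just below it.

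Scd2, the form best known from brain and early life, had 659, 823 and 1017 CPM in the WT libraries. Scd2 had 962, 379.7 and 465 CPM across Hete KO libraries and 374, 649 and 567 CPM across Homo KO libraries. All 3 Homo KO libraries lay below all 3 WT libraries, by a narrow gap between Homo KO 2 and WT 1, and Hete KO 1 lay among the WT values. The log2 fold change against WT was -0.65 in Homo KO (SE 0.341, 95% interval -1.41 to 0.11, edgeR adjusted p = 0.371) and -0.47 in Hete KO (SE 0.340, edgeR adjusted p = 0.461). Neither passed. With 1 library left out the Hete KO value ranged from -0.96 (without Hete KO 1) to -0.23 (without Hete KO 2), and it was -0.13 without the libraries with liver transcripts.

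Scd1 and Scd2 therefore stood in a different proportion in each knockout library than in the WT libraries. The ratio of their TPM levels was 49.1, 45.7 and 57.0 in the WT libraries, which is a narrow range. Across Hete KO libraries the ratio was 82.5, 223.8 and 186.8, and across Homo KO libraries it was 119.5, 135.4 and 171.1. All 6 knockout libraries lay above all 3 WT libraries, Homo KO 1 with its WT-like Scd1 level among them. In the same libraries Scd2 made up 1.72 to 2.14% of the summed TPM of the Scd genes in WT, 0.445 to 1.20% in Hete KO and 0.581 to 0.829% in Homo KO. The ratio was formed with the levels of both genes known and was given no test. The separation was not particular to this pair. On the TPM scale Scd1 over Fasn, the fatty acid synthase, gave 22.1, 13.8 and 22.8 in the WT libraries. It gave 23.6, 29.7 and 36.2 in those of Hete KO and 36.3, 26.75 and 32.4 in those of Homo KO, all above WT. Hete KO 1 lay only just above WT 3, and this ratio was formed on the TPM scale only. Ratios of Scd1 to Scd3 and to Elovl6 overlapped between WT and each knockout group. How many other gene pairs separate was not counted.

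Scd3, a form known from skin glands, was measured at 5.60, 4.77 and 4.14 CPM in the WT libraries. Scd3 stood at 8.01, 6.91 and 7.63 CPM across Hete KO libraries and 6.75, 4.56 and 5.22 CPM across Homo KO libraries. On the CPM scale the Hete KO libraries lay above all other libraries, with Hete KO 2 only just above Homo KO 1. By TPM, Hete KO 2 (2.80) lay below Homo KO 1 (3.05), so the knockout groups overlapped. On the log2 scale Hete KO against WT gave 0.64 (SE 0.209, 95% interval 0.17 to 1.11, edgeR adjusted p = 0.127) and Homo KO against WT 0.19 (edgeR adjusted p = 0.681). Homo KO against Hete KO gave -0.45 (SE 0.209, edgeR adjusted p = 0.899). These values rest on 95.5 to 216 estimated counts per library beside an Scd1 level 3595 to 11959 times higher on the TPM scale. The summed share of 4 sebaceous gland markers was 0.00111 to 0.00148% of counts in WT and 0.000601 to 0.000804% in Hete KO. Most of that gap was Krt79, a keratin, with mean levels of 9.97 CPM in WT and 3.79 in Hete KO, whereas Mc5r had 0.197 and 0.843 and Awat2 2.75 and 2.61. The part of these markers in the Scd3 values was not tested. Scd4, known from the heart, had 1.21, 1.04 and 2.07 CPM in the WT libraries. Scd4 had 1.78, 1.56 and 1.26 CPM across Hete KO libraries and 1.68, 1.996 and 1.73 CPM across Homo KO libraries. The 3 groups overlapped, with a log2 fold change of 0.32 in Homo KO (edgeR adjusted p = 0.682) and 0.09 in Hete KO (edgeR adjusted p = 0.913), and both changed sign under at least 1 alternative.

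**Figure D2:**
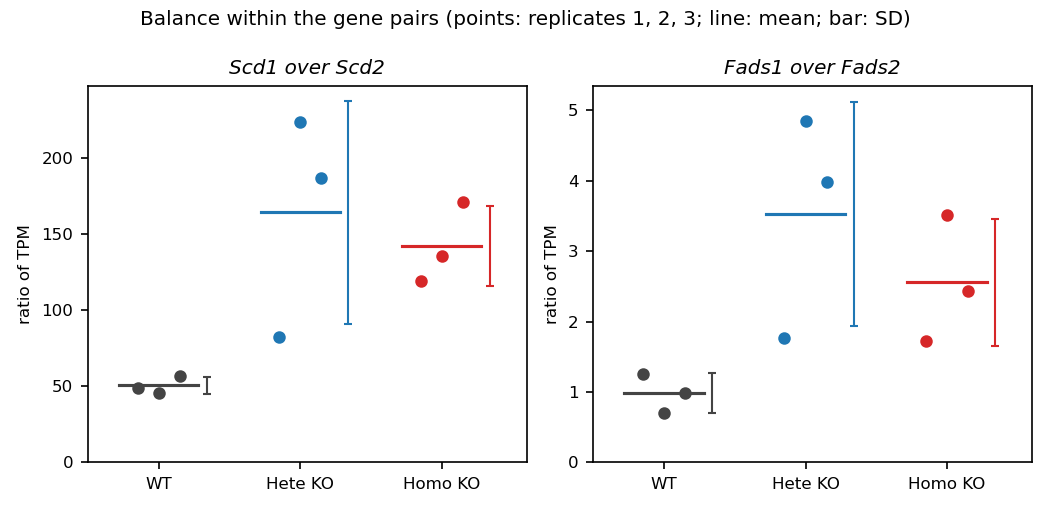
Ratio of TPM levels (vertical axes, from 0) of Scd1 over Scd2 and of Fads1 over Fads2 in each library, by genotype. Points are libraries 1, 2 and 3 from left to right, lines are means and bars are SDs (n = 3). For both pairs every knockout library lies above every WT library, from 82.5 upward against at most 57.0 for the Scd pair and from 1.73 upward against at most 1.26 for the Fads pair.

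Fads1, the later of the pair of desaturases on the path to arachidonic acid, had 22.5, 36.0 and 32.1 CPM in the WT libraries. Fads1 reached 37.7, 56.0 and 67.4 CPM across Hete KO libraries and 27.6, 42.5 and 50.4 CPM across Homo KO libraries. Hete KO libraries lay above WT, with Hete KO 1 only just above WT 2, and Homo KO 1 lay among the WT values. The log2 fold change was 0.83 in Hete KO against WT (SE 0.271, 95% interval 0.22 to 1.44, unadjusted p = 0.0122, edgeR adjusted p = 0.125). It did not pass by edgeR in the design reported. It passed under 2 of 20 alternatives, DESeq2 among them (adjusted p = 0.0236), and the adjusted p ranged from 0.0236 to 0.536 over all of them. Homo KO against WT gave 0.41 (SE 0.270, 95% interval -0.19 to 1.01, edgeR adjusted p = 0.47).

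Fads2, the first and limiting desaturase of the same path, had 7.18, 20.6 and 13.1 CPM in the WT libraries. Fads2 stood at 8.64, 4.64 and 6.81 CPM across Hete KO libraries and 6.43, 4.71 and 8.38 CPM across Homo KO libraries. WT 2 and WT 3 stood above the rest, and WT 1 lay among the knockout libraries. The log2 fold change was -1.02 in Hete KO against WT (SE 0.381, 95% interval -1.87 to -0.17, unadjusted p = 0.0231, edgeR adjusted p = 0.161). For Homo KO it was -1.06 (SE 0.381, 95% interval -1.91 to -0.21, unadjusted p = 0.0194, edgeR adjusted p = 0.238). These are the largest differences from WT among the 10 genes in size, and neither passed. WT 2 and WT 3 are also the libraries with liver transcripts, whose part in the Fads2 values was not tested. Without them, with WT 1 as the single WT library assumed to vary like the others, the log2 fold change was -0.10 in Hete KO and -0.14 in Homo KO (edgeR adjusted p = 0.968 and 0.942). The 9 liver markers include Alb and Apoa1, and all 9 were detected in each genotype.

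The TPM ratio of Fads1 over Fads2 was 1.26, 0.706 and 0.991 in the WT libraries. Among knockout libraries it was 1.77, 4.85 and 3.98 for Hete KO and 1.73, 3.51 and 2.43 for Homo KO. All 6 knockout libraries lay above the WT libraries, with WT 1 and Homo KO 1 nearest to each other. The part of liver transcripts in this ratio was not tested. As for the Scd pair, no test was made.

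Fads3 was the steadiest of the 3 Fads genes and made up 81.6 to 90.8% of their summed TPM. It had 374, 371 and 462 CPM in the WT libraries. Fads3 had 380.4, 299.6 and 352 CPM across Hete KO libraries and 345, 357 and 399 CPM across Homo KO libraries. The groups overlapped, with log2 fold changes of -0.23 (95% interval -0.53 to 0.08, edgeR adjusted p = 0.367) in Hete KO and -0.13 (95% interval -0.43 to 0.17, edgeR adjusted p = 0.656) in Homo KO.

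**Figure D3:**
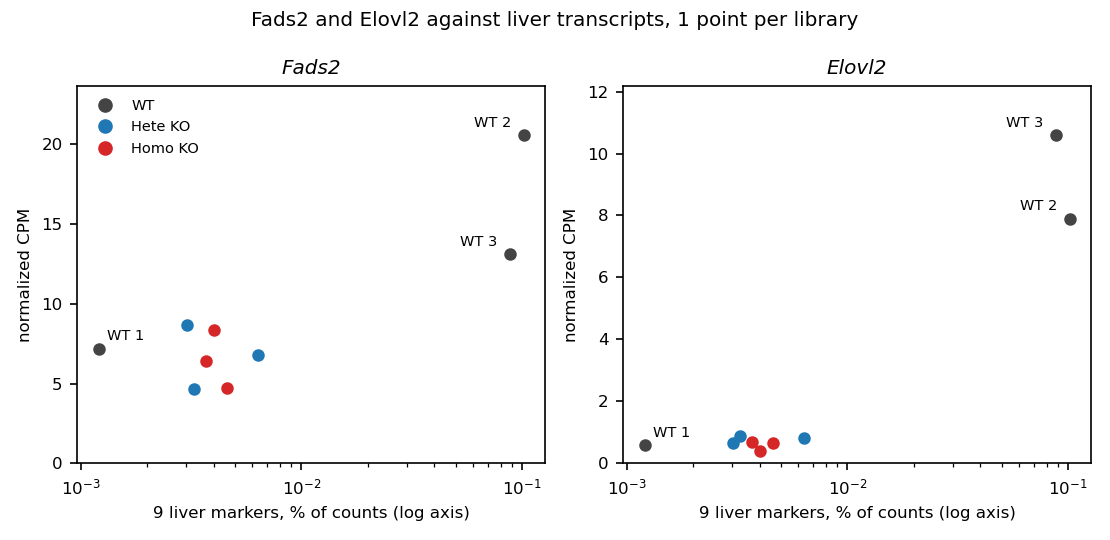
Normalized CPM of Fads2 and of Elovl2, an elongase of the polyunsaturated path, against the percentage of counts in 9 liver markers (horizontal log axis), with 1 point per library. WT 2 and WT 3, near 0.1% liver markers, have 20.6 and 13.1 CPM of Fads2 and 7.90 and 10.6 of Elovl2, and WT 1 lies near the knockout libraries in both.

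Elovl6, which makes stearate from palmitate and so a substrate of Scd1, had 45.6, 103 and 70.9 CPM in the WT libraries. Elovl6 reached 126, 99.3 and 84.5 CPM across Hete KO libraries and 44.2, 91.8 and 104 CPM across Homo KO libraries. WT 1 and Homo KO 1 were the low libraries, and the 3 groups overlapped. On the log2 scale Hete KO gave 0.50 (SE 0.344, 95% interval -0.27 to 1.26, edgeR adjusted p = 0.438) and Homo KO 0.13 (SE 0.343, 95% interval -0.64 to 0.90, edgeR adjusted p = 0.883), the latter changing sign when WT 1 or Homo KO 3 was left out. Both intervals include the value found for Scd1 in the same comparison. The genes share their libraries, and the difference between Elovl6 and Scd1 was not tested. The TPM ratio of Scd1 to Elovl6 was 569, 304 and 633 in the WT libraries, 518, 747 and 839 in those of Hete KO and 749, 595 and 747 in those of Homo KO, and its groups overlapped.

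Elovl5, which lengthens polyunsaturated chains, had 80.3, 83.0 and 106 CPM in the WT libraries. Elovl5 had 90.9, 67.9 and 81.9 CPM across Hete KO libraries and 88.7, 93.7 and 82.4 CPM across Homo KO libraries. The groups overlapped, and the log2 fold change was -0.16 in Hete KO (95% interval -0.48 to 0.15, edgeR adjusted p = 0.549) and -0.02 in Homo KO (95% interval -0.34 to 0.29, edgeR adjusted p = 0.955). Elovl1 had 14.6, 12.4 and 13.8 CPM in the WT libraries. Elovl1 stood at 13.3, 10.9 and 10.6 CPM across Hete KO libraries and 12.3, 12.4 and 11.3 CPM across Homo KO libraries. Against WT it was -0.23 on the log2 scale in Hete KO (95% interval -0.56 to 0.10, edgeR adjusted p = 0.403) and -0.18 in Homo KO (95% interval -0.51 to 0.15, edgeR adjusted p = 0.56). For Elovl5 and Elovl1 the 95% intervals against WT together span -0.56 to 0.29 on the log2 scale.

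**Figure D4:**
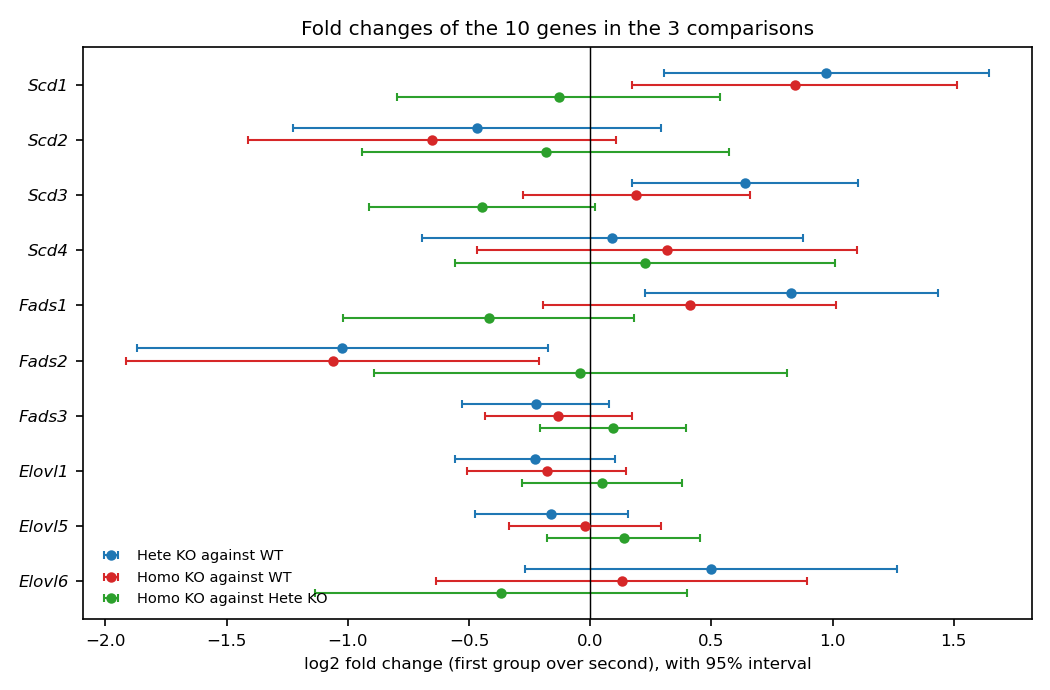
Log2 fold changes of the 10 genes (horizontal axis) with 95% intervals from edgeR's fit, in Hete KO against WT, Homo KO against WT and Homo KO against Hete KO. Intervals of Scd1 and Fads2 lie to one side of 0 against WT for both knockout groups and those of Scd3 and Fads1 for Hete KO only. None of the 30 differences passed after adjustment over 17968 genes.

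Counted as a family, 0 of 10 genes passed in Hete KO against WT by edgeR, where 0.417% of all tested genes did. By unadjusted p under 0.05 the count was 4 of 10 (Scd1, Scd3, Fads1 and Fads2), against 21.9% of all genes. In 3 of 10 (Scd1, Scd3 and Fads1) every Hete KO library lay above every WT library, against 12.6% of all genes, and in 0 of 10 below, against 12.1% (24.7% in either direction). DESeq2 called 2, Scd1 and Fads1, where it called 1674 of all genes (9.32%). In Homo KO against WT, 0 of 10 passed by edgeR, and of all genes 0 passed (0%), while DESeq2 called 654 (3.64%). By unadjusted p the count was 2 of 10 (Scd1 and Fads2), against 16.4% of all genes, and DESeq2 called 1, Scd1. Scd2 was the 1 gene whose Homo KO libraries all lay below WT, where 11.2% of all genes did, and 0 lay above, where 10.9% did (22.1% in either direction). In Homo KO against Hete KO, 0 of 10 passed by edgeR or DESeq2 and 0 had an unadjusted p under 0.05, with 0% of all genes passing by edgeR, 9 genes (0.0501%) called by DESeq2 and 5.44% having such a p. On the CPM scale Scd3 was the 1 gene with separate groups there, lower in Homo KO, as were 5.64% of all genes. Of all genes, 5.73% were higher and 11.4% separate in either direction. The Scd3 groups overlapped by TPM. The median log2 fold change of the 10 genes was -0.04 in Hete KO and 0.05 in Homo KO against WT and -0.09 between the knockout groups, beside 0.02, -0.0060 and 0.0033 over all genes. The first 2 comparisons share their WT libraries, so the likeness of Scd1 and Fads2 in both is not independent. With 10 genes, these counts are small, and they are given as a description.

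Isoform shares could be compared for the elongases, which have several transcripts each. Scd1, Scd2, Scd3, Fads1, Fads2 and Fads3 had 1 transcript each in the deposited files, Scd4 had 2, Elovl5 had 4, Elovl6 had 5 and Elovl1 had 7. The 1340-base Elovl1-207 made up 40.5, 37.7 and 34.2% of Elovl1 TPM in the WT libraries. Its share was 42.5, 17.6 and 22.2% among Hete KO libraries and 4.15, 12.5 and 15.2% among Homo KO libraries. All Homo KO libraries lay below all other libraries. The 1248-base Elovl1-203 made up 0, 9.25 and 1.26% in the WT libraries, 4.03, 22.1 and 0% in those of Hete KO and 34.3, 27.9 and 6.07% in those of Homo KO. With 15.5 to 162 estimated counts per library for Elovl1-207, these shares are imprecise, and they were not tested. For the whole gene, Homo KO against WT gave -0.18 on counts and 0.0455 with an offset for transcript length, both on the log2 scale.

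**Figure D5:**
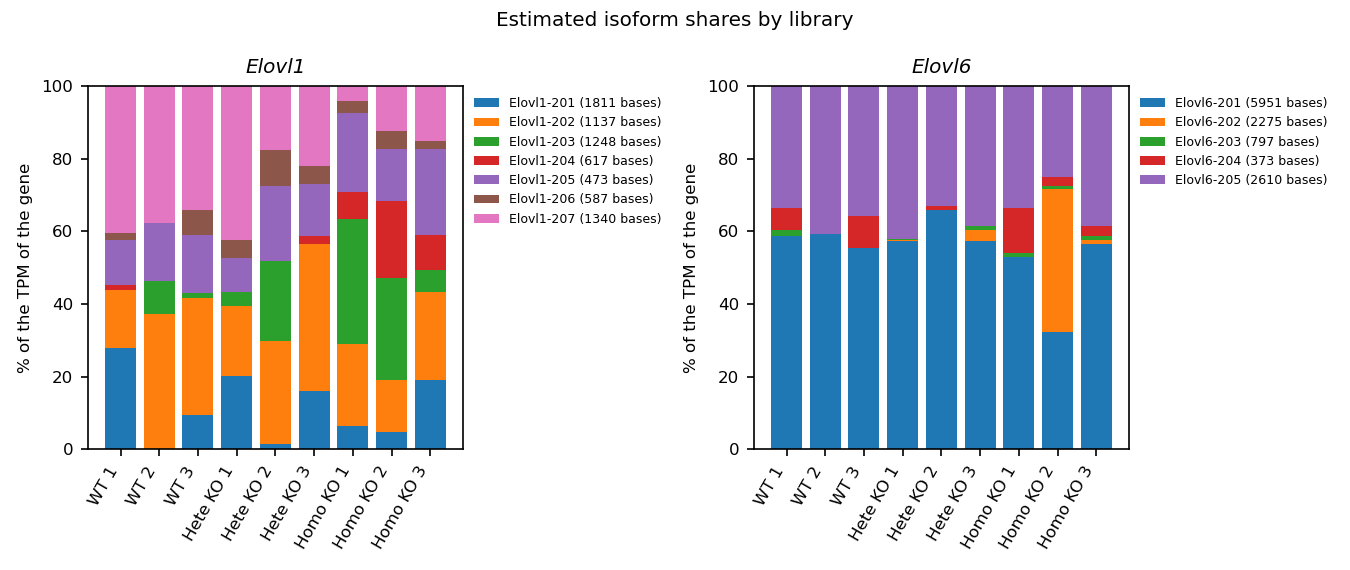
Percentage of the TPM of Elovl1 and Elovl6 held by each transcript (stacked bars from 0 to 100%), 1 bar per library, with transcript lengths in the key. Elovl1-207 takes 34.2 to 40.5% in WT, 17.6 to 42.5% in Hete KO and 4.15 to 15.2% in Homo KO. Elovl6-202 takes 39.4% in Homo KO 2 only.

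Elovl6-202, of 2275 bases, made up 39.4% of Elovl6 TPM in Homo KO 2, with 475 estimated counts. It had between 0 and 26.7 estimated counts in the other 8 libraries and at most 3.18% of the gene. Homo KO 2 also stood apart in the deposited effective lengths: the mean for Scd1 was 4569 bases there and 4637 to 4652 in the other 8 libraries. The part of this in the isoform shares was not tested. The longest transcript, Elovl6-201 of 5951 bases, took 32.3% in Homo KO 2 and 52.9 to 65.8% elsewhere. For Elovl5, the 638-base Elovl5-202 took 18.0% in WT 2 and 13.1% in Hete KO 2 and at most 5.53% in the other 7 libraries.

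The enzymes around these genes were read from lists of the same pathway, in which 50 of 51 genes could be tested and 0 passed by edgeR in any of the 3 comparisons. An unadjusted p under 0.05 was found for 12 of 50 (24%) in Hete KO against WT, 8 (16%) in Homo KO against WT and 2 (4%) in Homo KO against Hete KO, near the 21.9%, 16.4% and 5.44% of all genes. DESeq2 called 5 (Acaca, Elovl2, Slc25a1, Soat1 and Thrsp), 2 (Cyb5r2 and Elovl2) and 0, or 10%, 4% and 0%, beside 9.32%, 3.64% and 0.0501% of all genes. Among the other elongases, 3 of 4 could be tested, all with lower levels in both knockout groups than in WT. Elovl2, which lengthens the longer polyunsaturated chains, had 0.585, 7.90 and 10.6 CPM in the WT libraries, while the 6 knockout libraries ranged from 0.411 to 0.885 CPM. Its WT mean thus came from the same libraries with liver transcripts as that of Fads2, and WT 1 was level with the knockouts. Against WT it had -2.9997 on the log2 scale in Hete KO (edgeR adjusted p = 0.0859) and -3.44 in Homo KO (edgeR adjusted p = 0.162). Elovl7, an elongase of long saturated chains, ranged from 0.681 to 5.38 CPM over WT libraries and from 1.18 to 5.49 over knockout libraries. Elovl3, known from brown fat, was too low for the naming rule and is given because its values were seen. It had 3.97 CPM in WT 2, where 5 thermogenic markers held 0.0242% of counts. In the other libraries it had at most 1.22 CPM and they held at most 0.00801%. Ucp1, the largest part of the WT 2 share, and Dio2 peaked in WT (168 and 8.14 CPM). Cidea reached 27.4 CPM in WT and 26.8 in Hete KO, and Cox7a1 and Cox8b peaked in Hete KO (6.70 and 23.7 CPM). The part of these markers in the Elovl3 values was not tested. Of the other desaturases, Fads6, whose substrate is not established, had a log2 fold change of -0.04 in Homo KO and -0.18 in Hete KO. Degs1, the desaturase of ceramide synthesis, had -0.02 and -0.13.

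The remaining enzymes of the elongation cycle, 6 genes, had a median log2 fold change of -0.05 in Hete KO and -0.03 in Homo KO. Hacd1, one of the dehydratases of the cycle, had 19.3, 14.8 and 16.6 CPM in the WT libraries, 19.2, 23.7 and 25.6 in those of Hete KO and 16.9, 28.9 and 20.3 in those of Homo KO (0.43 and 0.38 against WT). Hacd4, another dehydratase, had -0.04 and 0.24, and Hsd17b12, the ketoreductase, -0.19 and -0.08. The 6 genes that supply electrons through cytochrome b5 had a median of -0.38 in Hete KO and -0.25 in Homo KO, with 5 and 4 of 6 below 0. Cyb5r3, the main reductase, had 381, 528 and 429 CPM in the WT libraries, 343, 294 and 378 in those of Hete KO and 331, 397 and 389 in those of Homo KO. Its Hete KO libraries lay below WT, with a log2 fold change of -0.40 (edgeR adjusted p = 0.17), and the Homo KO value was -0.26. On the CPM scale the reductase homologues Cyb5r1 and Cyb5r2 had lower levels in all Homo KO libraries than in WT, as did 11.2% of all tested genes. Their log2 fold changes were -0.52 and -1.38 (edgeR adjusted p = 0.222 and 0.188), with Cyb5r2 at under 3 CPM. By TPM the Cyb5r1 groups overlapped, with 25.0 in WT 3 and 30.3 in Homo KO 2.

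Among enzymes that make the substrates, directions were mixed, with 4 of 9 genes above 0 and 5 below in each knockout group against WT. Acaca, the acetyl-CoA carboxylase that commits carbon to fatty acid synthesis, had 431, 529.8 and 583 CPM in the WT libraries. Acaca reached 992, 1361 and 1047 CPM across Hete KO libraries and 480.0, 934 and 969 CPM across Homo KO libraries. As for Scd1, every Hete KO library lay above WT and Homo KO 1 lay within it, with a log2 fold change of 1.14 in Hete KO (SE 0.257, edgeR adjusted p = 0.0666) and 0.63 in Homo KO (edgeR adjusted p = 0.27). Slc25a1, the citrate carrier of mitochondria, went the other way, with -0.58 in Hete KO and -0.49 in Homo KO (edgeR adjusted p = 0.123 and 0.254). Pgd, which supplies NADPH, had -0.54 and -0.38. Fasn, the fatty acid synthase, had a WT mean of 3061 ± 802 CPM, a Hete KO mean of 4167 ± 677 and a Homo KO mean of 3128 ± 1287 (SD, n = 3 each), with 0.45 and 0.03 against WT.

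Of 13 transcriptional regulators, Thrsp, a lipogenic nuclear protein of fat and liver, had 137, 171 and 239 CPM in the WT libraries. Thrsp reached 409, 373 and 401 CPM across Hete KO libraries and 204, 307 and 385 CPM across Homo KO libraries. Its libraries were ordered much like those of Scd1, and the log2 fold change was 1.12 in Hete KO (SE 0.246, edgeR adjusted p = 0.0654) and 0.71 in Homo KO (edgeR adjusted p = 0.225). Mlxipl, which encodes the carbohydrate-responsive factor ChREBP, had 48.0, 58.3 and 54.4 CPM in the WT libraries, 60.7, 70.9 and 63.8 in those of Hete KO and 54.4, 50.7 and 55.2 in those of Homo KO. Its Hete KO libraries lay above all others by a small step, with 0.28 against WT (edgeR adjusted p = 0.163) and -0.29 for Homo KO against Hete KO (edgeR adjusted p = 0.899). Nr1h3, the liver X receptor alpha, had -0.25 in Hete KO and -0.22 in Homo KO (edgeR adjusted p = 0.232 and 0.35). The median of the 13 regulators was -0.10 in Hete KO and -0.0060 in Homo KO.

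Enzymes that take up the products include acyltransferases, which build them into lipids. All 5 acyltransferases had log2 fold changes below 0 against WT in both knockout groups, with medians of -0.36 in Hete KO and -0.13 in Homo KO. By edgeR 0 of them passed, and some hardly differed, as Lpcat3 with mean levels of 30.4 CPM in WT and 30.2 in Homo KO. Dgat2, which adds the last fatty acid to a triglyceride, had 1525, 1511 and 1944 CPM in the WT libraries, 1658, 785 and 1035 in those of Hete KO and 1216, 1326 and 1297 in those of Homo KO. On the CPM scale its Homo KO libraries lay below WT (-0.38, edgeR adjusted p = 0.456), as did 11.2% of all tested genes. By TPM these groups overlapped, with 1295 in WT 2 and 1374 in Homo KO 2. The Hete KO value of Dgat2 was -0.52 (edgeR adjusted p = 0.244) with Hete KO 1 among the WT values. Dgat1, which catalyses the same step, had -0.36 in Hete KO and -0.08 in Homo KO, and Soat1, which esterifies cholesterol, -0.81 and -0.41 (edgeR adjusted p = 0.155 and 0.504). Among 5 acyl-CoA synthetases, which activate fatty acids, Acsl6 had 9.86, 11.9 and 1.89 CPM in the WT libraries, 2.67, 20.6 and 0.875 in those of Hete KO and 1.63, 1.05 and 0.657 in those of Homo KO. The 3 libraries with high Acsl6 are those with muscle transcripts, and its log2 fold change of -2.82 in Homo KO against WT did not pass (edgeR adjusted p = 0.252). Acsl5 had -0.33 in Hete KO and -0.08 in Homo KO, and Acsl3 0.53 and -0.06.

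Profiles over the 9 libraries were also compared among 9245 tested protein-coding genes with a mean of at least 10 CPM. Genes with provisional symbols, such as Gm numbers or Rik names, and genes of the mitochondrial genome were left out. The measure was the root mean square difference of log2 CPM after centring each gene on its own mean. All points share the libraries and their depth, and the distances are a description. Nearest to Scd1, whose own profile had a root mean square of 0.56, were Gsta4 (0.14), a glutathione transferase of lipid aldehydes, Thrsp (0.15) and Amy1 (0.20), a salivary amylase. Gsta4 had 5.51, 6.97 and 10.7 CPM in the WT libraries, 16.0, 16.9 and 13.5 in those of Hete KO and 8.56, 15.1 and 21.7 in those of Homo KO. Homo KO 1 lay among the WT values, which follows from the choice of Gsta4 by likeness to Scd1. Nearest to Scd2 (0.51) were Mvk (0.17), mevalonate kinase of cholesterol synthesis, Bscl2 (0.20), which encodes the lipid droplet protein seipin, and Pafah2 (0.22), a phospholipase. Nearest to Elovl6 (0.50) were Fasn (0.15), Acly (0.16), the cytosolic source of acetyl-CoA, and Tkt (0.26), a transketolase. Nearest to Fads2 (0.61) were Acaa1b (0.26), a peroxisomal thiolase, Emilin2 (0.28) and Grip2 (0.29), none of them as close as the nearest gene of each of the other 3 members. Acaa1b was picked for its likeness to Fads2, so high values in the same libraries follow from that choice. It had 41.4 CPM in WT 2 and 42.5 CPM in WT 3, and ranged from 14.3 to 21.03 CPM elsewhere.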

How the data were processed

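RNA was measured in 9 libraries, 3 per genotype. The authors deposited estimated counts per transcript, fractional and not normalized per the file headers. Beside them the authors deposited TPM, scaled to effective length and library total, and the effective lengths. The submitters' processing notes name mm10. For the quantifier and its use of strand, the sources used here give nothing. Of 113193 transcripts, 111362 (98.38%) were assigned to GENCODE M21 genes, and the rest, 0.58 to 1.06% of counts, were left out. Summed counts were rounded, and 17968 genes passed the filter. edgeR 4.0.16 (R 4.3.3; TMM, quasi-likelihood F-test, 6 residual degrees of freedom, prior count 0.125, two-sided) was fitted to all 9 libraries, with Benjamini-Hochberg adjustment over all tested genes and a threshold of 0.05. SEs are the log2 fold change over the root of F, and 95% intervals use the fit's degrees of freedom. The fitting code was tested on simulated data. DESeq2 1.42.0, limma 3.58.1 on log2 TPM and 20 alternatives in all were run.

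Named are the 10 genes, Ago1, per pathway list up to 3 genes with the smallest p and a mean of at least 1 CPM, and the 3 genes most alike in profile to Scd1, Scd2, Fads2 and Elovl6. The members and lists were chosen with earlier results of these data known. Coding sequences were aligned with Biopython 1.88. Promoters and proteins were not used here.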

Additional observations from a re-analysis of the deposited data

How the results depend on the processing

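Of 600 log2 fold changes of the 10 genes under 20 alternatives, 573 kept direction and side of the threshold, 23 changed sign and 4 passed it. The 4 were Scd1 in Homo KO (0.84) and Hete KO (0.97) and Fads1 in Hete KO (0.83) by DESeq2, and Fads1 in Hete KO with the replicate block (0.81, edgeR adjusted p = 0.047). The count of the 10 genes called was then 1 in Homo KO by DESeq2, and in Hete KO 2 by DESeq2 and 1 with the replicate block. Replicate numbers did not pair the libraries (correlation of deviations from -0.123 to 0.557, with 5 of 9 libraries closest to their own number). Over all genes, the count called in Homo KO against WT was 654 by DESeq2, 1 without a filter, 7 with only the compared groups, 41 without the libraries rich in muscle transcripts, 2 without those with liver transcripts and 0 to 153 with 1 library left out, against 0 in the fit reported. In Hete KO against WT, 75 became 1674 by DESeq2, 258 without a filter, 1 with a length offset, 0 with only the compared groups, 248 with the replicate block, 0 by limma on log2 TPM at either pseudocount (0.5 or 0.1), 11 without muscle-transcript and 1 without liver-transcript libraries. Leaving out 1 library gave 0 to 958: 431 without WT 1, 1 without WT 2, 26 without WT 3, 958, 1 and 0 without Hete KO 1, 2 and 3, and 0, 0 and 2 without Homo KO 1, 2 and 3. Homo KO against Hete KO gave 9 by DESeq2. Changes of sign in Homo KO against WT were Elovl1 with a length offset (0.0455) and by limma (0.0647 and 0.0658), Scd4 without muscle-transcript libraries (-0.20), and Scd3 (-0.0233) and Elovl5 (0.14) without liver-transcript libraries. With 1 library left out, Elovl5 ranged from -0.0878 to 0.12 and Elovl6 from -0.11 to 0.46. In Hete KO against WT, Scd4 was -0.0281 with a length offset, -0.43 without muscle-transcript libraries and -0.0814 to 0.47 with 1 library left out. In Homo KO against Hete KO, leaving out 1 library gave -0.35 to 0.13 for Scd1, -0.42 to 0.32 for Scd2, -0.28 to 0.18 for Fads2 and -0.0262 to 0.15 for Elovl1. Without muscle-transcript libraries, Elovl1 was -0.0013 and Fads3 -0.0027. Apart from length weighting and fewer libraries, the cause was not tested. Depth limits Scd3, Scd4 and single isoforms of Elovl1.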
